A study of Mus musculus with 12 samples.

Results

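The MYC, MAX and MXD network is the family of transcription factors built around MAX, and 10 of its genes were followed here by symbol: *Myc*, *Mycn*, *Mycl*, *Max*, *Mxd1*, *Mxd3*, *Mxd4*, *Mxi1*, *Mnt* and *Mlx*. All 10 were among the 25860 genes listed for RNA-seq, and 8 of them were among the 14459 genes that were tested, those whose normalized count averaged at least 10 over 6 libraries. CD8+ T_prog_ cells, the progenitor pool of the autoreactive CD8+ T cell response, were sorted from the pancreatic lymph node and measured by RNA-seq and by ATAC-seq, an assay of open chromatin, with 3 libraries per genotype in each assay. The question for the network was which of its transcripts and nearby accessible regions differed when T cells lacked UTX, the chromatin regulator encoded by *Kdm6a*. All mice were female NOD mice carrying the NOD-TCR 8.3 transgenic T cell receptor, which recognizes the β cell antigen IGRP on MHC class I, and their age is not stated for these libraries, while the paper used mice of 6 weeks when it sorted such cells for transfer. The *NOD-TCR 8.3 UTX TCD* mice carried floxed *Kdm6a* alleles and Lck-Cre, a Cre recombinase expressed from thymic stages onward, so that deletion begins in the thymus. The *NOD-TCR 8.3 WT* mice were the UTX-sufficient controls. The paper defines its *NOD-WT* controls as littermates with floxed alleles and no Cre, and does not restate the alleles for the *NOD-TCR 8.3 WT* mice. The sort gate is Ly108+CD39- in the paper and Ly108+ with CXCR6 excluded in the series text of the deposit.

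MAX forms dimers with MYC proteins that bind E-box sequences and raise the transcription of genes for growth, and dimers with MXD proteins, MXI1, MNT or MGA that bind the same sequences and lower it. The MAX-like protein MLX pairs with part of these partners and, in separate dimers, with the glucose-sensing factors MLXIP and MLXIPL. In CD8+ T cells, MYC is induced by antigen receptor and cytokine signals and drives the growth and metabolic change that precede division.

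The RNA-seq libraries held 146456724, 144503203 and 193568919 counted reads in WT replicates 1 to 3 and 61512402, 175462433 and 187275082 in UTX TCD replicates 1 to 3. UTX TCD replicate 1 was the shallowest, and there 3 reads correspond to a normalized count of 6.75, against 2.21 to 2.97 in the other libraries. A normalized count is the read count of a gene divided by the size factor of its library. Log2 fold changes below are UTX TCD over WT from limma on log2(normalized count + 1), and a gene is called higher or lower at an adjusted p under 0.05 over all 14459 genes. With 3 libraries in each group, the smallest p that an exact permutation test of a single gene can give is 0.10. In bulk RNA a difference in the share of cells that express a gene and a difference in RNA per cell cannot be told apart.

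The deleted gene was checked first. *Kdm6a* (chrX:18160862-18279936) had normalized counts of 28365, 28949 and 29172 in WT and 24158, 24792 and 24579 in UTX TCD libraries. No UTX TCD library reached the lowest WT library, with a difference of -0.23 on the log2 scale by limma (SE 0.04, adjusted p = 0.00114) that kept its sign and its call under every scaling of the libraries that was tried. Counts over the whole gene do not show which exons were transcribed, so they do not measure the extent of the deletion. Of 7 CD8 T cell markers, all were listed and tested, and *Cd8a* was the most abundant. Their summed normalized counts were 1051802, 998233 and 1028462 in WT and 1025623, 1001335 and 927508 in UTX TCD libraries. Among them *Cd3e* was higher by a log2 fold change of 0.17 (adjusted p = 0.0414 from limma), and 4 were lower (over all genes tested, 20.2% were higher and 20.5% lower), with *Cd3d* at -0.28 (adjusted p = 0.00485), *Cd3g* at -0.26 (adjusted p = 0.00631) and *Cd8b1* at -0.37 (adjusted p = 0.00634). With libraries scaled to the same sum, 2 of these markers were higher and 3 lower, and the *Cd3e* call held in only 1 of the 6 fits that left out 1 library, the fit without UTX TCD replicate 3, with adjusted p values up to 0.155 in the others.

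The progenitor and sort markers, 6 genes with *Tcf7* as the most abundant, were also all tested and summed to between 493905 and 534853 in WT and between 476946 and 506905 in UTX TCD libraries. *Cxcr6*, the marker that the series text gates out, had normalized counts of 12757, 9619 and 13724 in WT and 5286, 5994 and 5695 in UTX TCD libraries. It was detected in all 6 libraries and was lower in each UTX TCD library than in each WT library, with a difference of -1.07 on the log2 scale by limma (SE 0.12, adjusted p = 0.000131). *Cd44* was the 1 gene of this list called higher, by 0.17 (adjusted p = 0.0322), and the call held in 1 of the 6 fits that left out 1 library, the fit without UTX TCD replicate 2, with adjusted p values up to 0.102. *Entpd1*, which encodes CD39, had normalized counts of 4.42 to 29.6. Under the scaling to the same sum, 1 gene of this list was likewise higher and 1 lower.

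Of the 8 tested members of the network, 3 were called higher (*Myc*, *Max* and *Mxd3*), against 20.2% of all genes tested (2924 of 14459), and 3 were called lower (*Mxd1*, *Mxi1* and *Mlx*), against 20.5% (2963 of 14459). With libraries scaled to the same sum, the median of all genes moved from -0.00 to 0.06 and the share of calls that were higher from 49.7% to 63.5%, and under that scaling 4 members were higher, *Mnt* being added, and 0 were lower by limma. At an unadjusted p under 0.05, and by edgeR and DESeq2 on recovered reads, the members counted 3 higher and 3 lower. Only *Mxd3* also passed an absolute log2 fold change of 0.5, against 17.6% of all genes. The groups did not overlap for 7 of the 8 members, 4 with all UTX TCD libraries above all WT libraries and 3 with all below, where 51.9% of all genes tested did not overlap. The median log2 fold change of the members was 0.05, and 0.11 with libraries scaled to the same sum. The sections that follow take the members by role, from the activators through their shared partner to the antagonists.

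*Myc* (chr15:61985341-61990361), the activator of the network in T cells, had normalized counts of 14861, 17382 and 14211 in WT and 18805, 19107 and 21076 in UTX TCD libraries. The highest WT library, replicate 2, lay below the lowest UTX TCD library, replicate 1, and UTX TCD replicate 3 was the highest of the 6. *Myc* rose from a WT mean of 15485 ± 1675 to a UTX TCD mean of 19663 ± 1233 (SD, n = 3 each), a fold of 1.27 and a difference of 0.35 on the log2 scale by limma (SE 0.08, interval 0.17 to 0.52, adjusted p = 0.00643). It was called in each of the 6 fits that left out 1 library, with log2 fold changes of 0.29 to 0.43 and adjusted p values of 0.00110 to 0.0273, and in the 10 other alternatives, with adjusted p values up to 0.0400.

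The paralogs of *Myc* that serve mainly neural and other tissues were at the limit of detection. *Mycn* (chr12:12936093-12941836) had 1 to 8 reads per library, or normalized counts of 0.991, 2.96 and 1.53 in WT and 6.75, 1.60 and 5.90 in UTX TCD libraries. *Mycl* (chr4:122995588-123002490) had 0 to 7 reads, or normalized counts of 0.991, 6.91 and 3.81 in WT and 0, 3.20 and 2.95 in UTX TCD libraries. In both genes the groups overlapped and most libraries were near the level that 3 reads set, so neither was tested and a difference was not detectable at this depth.

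*Max* (chr12:76937269-76962323), the dimer partner that MYC and its antagonists share, had normalized counts of 20626, 20090.0 and 20062 in WT and 24302, 24024 and 22642 in UTX TCD libraries. WT libraries lay close to each other and every UTX TCD library lay above them, with replicate 3 the lowest of its group. *Max* rose from a WT mean of 20259 ± 318 to a UTX TCD mean of 23656 ± 889 (SD, n = 3 each), a difference of 0.22 on the log2 scale by limma (SE 0.04, adjusted p = 0.00296). The call held in all 6 fits that left out 1 library (0.20 to 0.25) and under the scaling to the same sum (0.29).

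*Mxd1* (chr6:86647044-86669234) encodes a MAX partner that recruits the SIN3 corepressor and is associated with cells leaving the cycle. Its normalized counts were 5264, 6243 and 5701 in WT and 4897, 5238 and 4407 in UTX TCD libraries. The groups did not overlap, but WT replicate 1 and UTX TCD replicate 2 lay within 1% of each other. *Mxd1* fell by 0.24 on the log2 scale (SE 0.08, adjusted p = 0.0378 from limma, lower in 3 of 3 UTX TCD libraries). The sign was the same in every alternative, whereas the call was lost without WT replicate 2 (adjusted p = 0.111), WT replicate 3 (0.0775), UTX TCD replicate 1 (0.0639) or UTX TCD replicate 3 (0.104), under the scaling to the same sum (-0.18, adjusted p = 0.109) and without the trend in eBayes (adjusted p = 0.103). *Mxd1* overlaps the predicted gene *Gm38850* by 9111 bases.

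*Mxi1* (chr19:53310128-53373293), the relative of *Mxd1* also known as MXD2, had normalized counts of 2551, 2526 and 2635 in WT and 2294, 2257 and 2078 in UTX TCD libraries. WT libraries were close together, and UTX TCD replicate 3 was the lowest of the 6. *Mxi1* fell by 0.22 on the log2 scale (SE 0.06, adjusted p = 0.0197 from limma, lower in 3 of 3 UTX TCD libraries). The call was lost without WT replicate 1 (adjusted p = 0.0616), without WT replicate 3 (0.0693) and under the scaling to the same sum (-0.16, adjusted p = 0.0608). *Mxi1* overlaps the predicted gene *Gm30541* by 16740 bases, and the part of reads from the overlaps of *Mxd1* and *Mxi1* in their values was not tested.

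*Mxd3* (chr13:55325170-55329900), whose expression in other tissues is tied to S phase of dividing cells rather than to exit from the cycle, stood apart in size. Its normalized counts were 121, 99.7 and 83.9 in WT and 214, 247 and 279 in UTX TCD libraries. The lowest UTX TCD library, replicate 1, was well above the highest WT library, replicate 1. *Mxd3* rose from a WT mean of 101 ± 18.5 to a UTX TCD mean of 247 ± 32.8 (SD, n = 3 each), a fold of 2.43 and a difference of 1.28 on the log2 scale by limma (SE 0.19, adjusted p = 0.000764). Leaving out 1 library gave 1.15 to 1.41, and the call held in all 6 of those fits and in the 10 other alternatives. The gene overlaps *Prelid1* by 103 bases, and *Prelid1* itself had a log2 fold change of -0.13 (adjusted p = 0.245 from limma, groups overlapping).

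Most proliferation genes were called higher, as were *Mxd3* and *Myc*. All 19 genes of the list were tested, 18 were called higher and 0 lower by limma (20.2% and 20.5% of all genes tested were), with 0 lower also at an unadjusted p under 0.05 and by edgeR and DESeq2, and with the same counts under the scaling to the same sum. Their summed normalized counts were 139505, 152262 and 143735 in WT and 200956, 207238 and 223950.0 in UTX TCD libraries, with *Mcm6* the most abundant. The median log2 fold change was 0.74, against -0.00 over all genes tested, and 13 genes passed 0.5. *Mki67*, a marker of cycling cells, had normalized counts of 13571, 14836 and 13395 in WT and 27436, 26909.6 and 34778 in UTX TCD libraries, a difference of 1.08 on the log2 scale by limma (SE 0.09, adjusted p = 3.25e-05). The replication helicase genes *Mcm4* and *Mcm2* were higher by 0.51 (adjusted p = 2.68e-05) and 0.57 (adjusted p = 3.6e-05), each in 3 of 3 UTX TCD libraries. *Pcna* was the 1 gene without a call, at -0.05 (adjusted p = 0.336), or 0.01 with libraries scaled to the same sum. WT replicate 2 was the highest WT library and UTX TCD replicate 3 the highest UTX TCD library for *Myc*, for *Mki67* and for the proliferation sum. *Mxd3* was also highest in UTX TCD replicate 3, but in WT it was highest in replicate 1, where the proliferation sum was lowest. The part of the cycling share of the cells in the values of *Myc* and *Mxd3* was not tested.

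*Mxd4* (chr5:34176580-34187710), another SIN3-recruiting partner of MAX, had normalized counts of 6248, 6059 and 5997 in WT and 6593, 6621 and 4991 in UTX TCD libraries. Here the libraries of 1 group split, since UTX TCD replicates 1 and 2 lay above all WT libraries and replicate 3 below all of them. By limma the difference was -0.02 on the log2 scale (SE 0.10, interval -0.25 to 0.21, adjusted p = 0.891), and it was 0.12 without UTX TCD replicate 3 (adjusted p = 0.0765) and 0.04 with libraries scaled to the same sum. *Mnt* (chr11:74830806-74845725), the broadly expressed antagonist that also pairs with MLX, had normalized counts of 8051, 8241 and 8325 in WT and 8512, 8497 and 9814 in UTX TCD libraries. All 3 UTX TCD libraries were above all WT libraries, by little in replicates 1 and 2 and by more in replicate 3. *Mnt* was not called, at 0.12 (SE 0.06, interval -0.02 to 0.26, adjusted p = 0.146 from limma), and it passed only under the scaling to the same sum (0.18, adjusted p = 0.0470).

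*Mlx* (chr11:101086707-101092207), the MAX-like partner of MNT, MXD1, MXD4 and the glucose-sensing factors, had normalized counts of 10512, 9109.6 and 10191 in WT and 8930.1, 8835 and 8593 in UTX TCD libraries. The groups were separated by a narrow gap between WT replicate 2 and UTX TCD replicate 1. *Mlx* fell by 0.18 on the log2 scale (SE 0.06, adjusted p = 0.0380 from limma, lower in 3 of 3 UTX TCD libraries). Of the 6 fits that left out 1 library, the call held in 1, that without WT replicate 2 (adjusted p = 0.00416). It was lost without WT replicate 1 (0.149), WT replicate 3 (0.110), UTX TCD replicate 1 (0.0622), UTX TCD replicate 2 (0.0909) or UTX TCD replicate 3 (0.0878), under the scaling to the same sum (-0.11, adjusted p = 0.117) and without the trend in eBayes (adjusted p = 0.0977). *Mlx* overlaps *Psmc3ip* by 67 bases, and *Psmc3ip* was itself lower, by a log2 fold change of -0.26 (adjusted p = 0.0466 from limma). The part of reads from the overlap in either value was not tested.

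**Figure D1:**
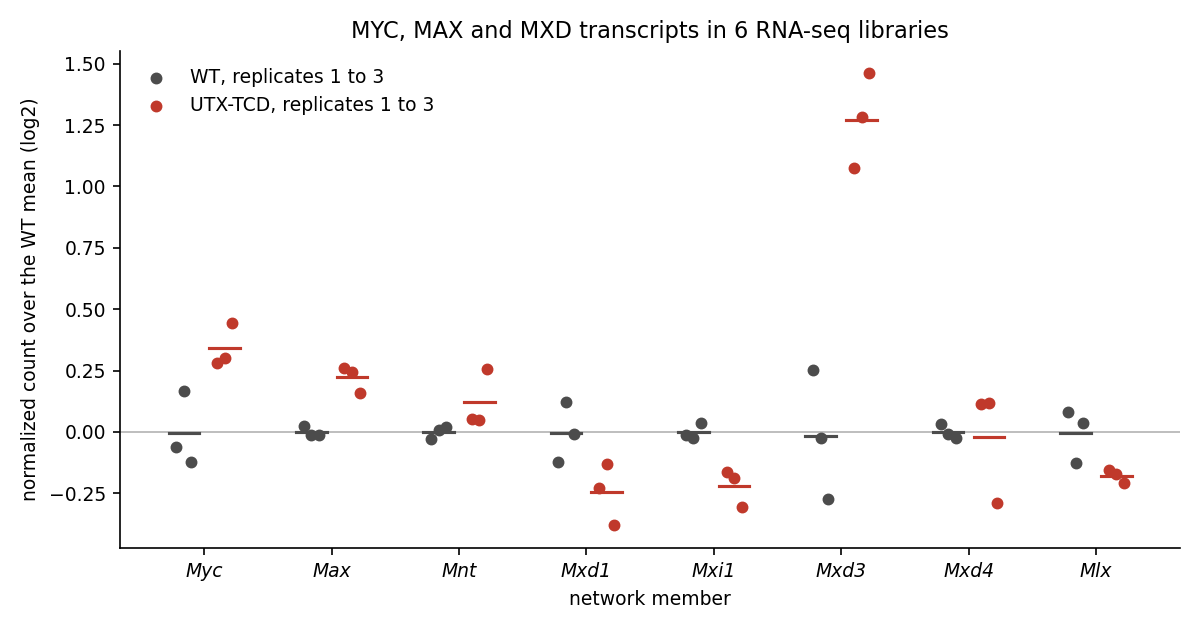
Normalized count of each tested network member in each RNA-seq library, as log2 over the mean of the 3 WT libraries; points are libraries in replicate order, grey for WT and red for UTX TCD, and bars are group means of the log2 values. *Mxd3* stands farthest from WT, *Myc* and *Max* lie above and *Mxd1*, *Mxi1* and *Mlx* below without overlap (these 3 without a call when libraries are scaled to the same sum). *Mnt* also lies above without overlap, but is called only under that scaling. The UTX TCD libraries of *Mxd4* split. Of all genes tested, 51.9% did not overlap.

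The wider network adds *Mga*, *Mlxip* and *Mlxipl*. *Mga*, a large MAX partner found in a polycomb complex, had normalized counts of 55589, 57128 and 55801 in WT and 58095, 59178 and 61869 in UTX TCD libraries. The groups did not overlap, and the log2 fold change of 0.09 was not called (adjusted p = 0.127 from limma) except under the scaling to the same sum (adjusted p = 0.0221). *Mlxip*, which encodes MondoA, a glucose-sensing partner of MLX, had normalized counts of 38919, 51059 and 39498 in WT and 56799, 57868 and 47309 in UTX TCD libraries. WT replicate 2 lay above UTX TCD replicate 3, so the groups overlapped. The difference of 0.33 on the log2 scale was called by limma (SE 0.11, adjusted p = 0.0420). The call held without WT replicate 2 or UTX TCD replicate 3, the libraries nearest to the other group (adjusted p = 0.00491 and 0.0195), and was lost without WT replicate 1 (0.138), WT replicate 3 (0.121), UTX TCD replicate 1 (0.101) or UTX TCD replicate 2 (0.131), and without the trend in eBayes (0.127). *Mlxipl*, which encodes ChREBP, the glucose sensor of liver and fat, had 0 to 14 reads and was not tested.

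Levels of the 10 tested genes of the network and its extension were compared per kb of exon, taking the union of the curated RefSeq exons of each gene. The untested *Mycn*, *Mycl* and *Mlxipl* lay far below these 10 and were left out. *Max* was the most abundant, at 8617 ± 135 per kb in WT and 10062 ± 378 (SD, n = 3 each) in UTX TCD libraries. *Myc* came next, at 6455 ± 698 (SD, n = 3) and 8196 ± 514 (SD, n = 3). Behind it in WT were *Mlxip* (5345 ± 848), *Mxd4* (5175 ± 111) and *Mlx* (5032 ± 372), whose libraries overlapped with each other, and *Mlxip* overlapped with *Myc* as well. *Mga* (4032 ± 59.9), *Mnt* (1789 ± 30.7), *Mxd1* (1230.3 ± 105) and *Mxi1* (674 ± 14.9) followed without overlap, and *Mxd3* was last of these 10 at 78.2 ± 14.3, each as SD with n = 3. The order of these 10 genes by group mean was the same in UTX TCD libraries, where *Mxd3* reached 190.0 ± 25.3 (SD, n = 3) and was still the least abundant of the 10. The UTX TCD libraries of *Mxd4*, *Mlx* and *Mga* overlapped, and in replicate 3 alone *Mxd4* (4233 per kb) lay below *Mlx* (4351) and *Mga* (4441).

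The balance of activator and antagonists was read as the share of *Myc* in the sum of *Myc*, *Mxd1*, *Mxd3*, *Mxd4*, *Mxi1* and *Mnt* per kb. *Mga*, whose product also pairs with MAX to lower transcription, was left out of this sum. Its means were 4032 per kb in WT and 4286 in UTX TCD libraries, above *Mnt*. With *Mga* included, the shares of *Myc*, *Mxd4* and *Mxd3* below would all be smaller. This share was 40.9%, 44.6% and 40.0% in WT and 45.8%, 45.9% and 52.1% in UTX TCD libraries. UTX TCD libraries were all above WT libraries, with WT replicate 2 close to UTX TCD replicates 1 and 2, and UTX TCD replicate 3 set apart. The means were 41.8 ± 2.41% (SD, n = 3) and 48.0 ± 3.59% (SD, n = 3), given as a description without a test. The antagonists of this sum, without *Mga*, came to 8946, 9014 and 8879.9 per kb in WT and 9265, 9374 and 8078 in UTX TCD libraries. The groups overlapped and UTX TCD replicate 3 held the lowest sum. *Mxd4* alone made up 57.8 ± 1.22% of this antagonist sum in WT and 57.6 ± 4.47% (SD, n = 3 each) in UTX TCD libraries, and *Mxd3* 0.874 ± 0.158% (SD, n = 3) and 2.16 ± 0.458% (SD, n = 3). *Max* per kb was 0.526 to 0.579 of the sum of *Myc* and these antagonists in WT and 0.571 to 0.604 in UTX TCD libraries, which overlapped. mRNA shares do not give the amounts of protein or of dimers.

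Partners through which the network acts on chromatin were a list of 16 genes, all tested, of which 3 were higher (18.8%) and 2 lower (12.5%), with a median log2 fold change of -0.03 against -0.00 for all genes. These shares were below those of all genes tested, 20.2% higher and 20.5% lower, against which the counts of the lists that follow are also to be read. With libraries scaled to the same sum 4 were higher and 0 lower by limma, with a median of 0.04. *Sap30*, a subunit of the SIN3 complex that MXD proteins recruit, was higher by 0.52 (SE 0.10, adjusted p = 0.00313), and all 3 UTX TCD libraries (935 to 1012) were above all WT libraries (615 to 756). *Kat2a*, an acetyltransferase recruited by MYC, was higher by 0.23 (adjusted p = 0.00597) and *Trrap*, the scaffold that links MYC to such enzymes, by 0.14 (adjusted p = 0.0334), each in 3 of 3 libraries. *Ruvbl2*, an ATPase of the same complexes, was lower by a log2 fold change of -0.16 (adjusted p = 0.0173), and the deacetylase gene *Hdac2* by -0.12 (adjusted p = 0.0401). When libraries were left out 1 at a time, the calls of *Sap30* and *Kat2a* held each time, that of *Trrap* held only without UTX TCD replicate 3 (adjusted p up to 0.140 otherwise), that of *Ruvbl2* only without WT replicate 2 or UTX TCD replicate 3 (up to 0.0702) and that of *Hdac2* in none of the 6 (up to 0.115). The count of lower partners was 0 by limma without WT replicate 1, WT replicate 3, UTX TCD replicate 1 or UTX TCD replicate 2. With a replicate block, *Trrap* (adjusted p = 0.0561) and *Hdac2* (adjusted p = 0.0614) lost their calls, as they did without the trend in eBayes (0.0737 and 0.0881).

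Regulators of MYC protein turnover were 13 genes, all tested, of which 5 were higher and 4 lower, or 5 and 2 with libraries scaled to the same sum. The lower count was 1 without WT replicate 1 or without the trend in eBayes, and 2 without WT replicate 3 or any 1 of the UTX TCD replicates. The median was -0.06, and 0.01 under that scaling to the same sum. *Usp28*, which encodes the deubiquitinase that protects MYC from the ubiquitin ligase FBXW7, had normalized counts of 28018, 27469.8 and 28596 in WT and 10561, 10619.7 and 9880.0 in UTX TCD libraries. Within each group the libraries were close, and the groups were far apart. *Usp28* fell from a WT mean of 28028 ± 563 to a UTX TCD mean of 10354 ± 411 (SD, n = 3 each), a difference of -1.44 on the log2 scale by limma (SE 0.04, adjusted p = 7.76e-08). Its opponent *Fbxw7* was lower in 3 of 3 libraries by a log2 fold change of -0.15 (adjusted p = 0.0450), a call that did not hold in any of the 6 fits that left out 1 library (adjusted p up to 0.117) or with a replicate block (0.0554). The ligase genes *Huwe1* and *Trim32* were higher by 0.30 (adjusted p = 0.000885) and 0.34 (adjusted p = 0.00215), each in 3 of 3 libraries. The kinases that mark MYC for FBXW7 moved apart, with *Gsk3b* higher by 0.22 (adjusted p = 0.00288) and *Gsk3a* at -0.29 (adjusted p = 0.0127), each in 3 of 3 libraries and under both scalings. The *Gsk3a* call was lost without WT replicate 1 (adjusted p = 0.0519) and without the trend in eBayes (0.0585).

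Inputs to *Myc* transcription were 11 genes, all tested, of which 2 were higher and 2 lower (18.2% each, near the shares over all genes), or 2 and 0 (limma) with libraries scaled to the same sum. The median was -0.02, and 0.04 under that scaling. *Pvt1*, the noncoding gene that begins 47.6 kb after *Myc*, had normalized counts of 1659, 1938 and 1592 in WT and 2940.0, 2831 and 3259.7 in UTX TCD libraries. Its order of libraries resembled that of *Myc*, with WT replicate 2 the highest in WT and UTX TCD replicate 3 the highest of all. *Pvt1* rose by 0.80 on the log2 scale (SE 0.09, adjusted p = 0.000143 from limma). *Lef1*, a DNA-binding partner of β-catenin, was higher by 0.38 (SE 0.08, adjusted p = 0.00517), with 120504 to 147801 in UTX TCD and 95133 to 109084 in WT libraries. *Hnrnpk* and *Cnbp*, whose products bind single-stranded DNA near *Myc* promoters, were at -0.14 (adjusted p = 0.0151) and -0.21 (adjusted p = 0.0367). *Hnrnpk* lost its call without WT replicate 1, UTX TCD replicate 1 or UTX TCD replicate 2 (adjusted p up to 0.0631), and *Cnbp* without WT replicate 2, WT replicate 3, UTX TCD replicate 1 or UTX TCD replicate 2 (up to 0.118). The lower count was thus 1 without any 1 WT library and 0 by limma without UTX TCD replicate 1 or 2.

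Genes that MYC activates were read in 3 lists. Of 36 ribosome biogenesis genes, the most widely shared MYC targets, all were tested, 12 were lower and 0 higher by limma, with 0 higher also at an unadjusted p under 0.05 and by edgeR and DESeq2. The median log2 fold change was -0.10 with 31 of 36 genes below 0, and with libraries scaled to the same sum 4 were lower, the median was -0.04 and 24 were below 0. *Pes1*, a factor of large-subunit assembly, had normalized counts of 14333, 14089 and 14321 in WT and 10923, 10896 and 11344 in UTX TCD libraries. Its libraries were tight in each group and *Pes1* fell by 0.37 on the log2 scale (SE 0.04, adjusted p = 0.000122 from limma). *Nip7*, an assembly factor, and *Fbl*, the methyltransferase of small nucleolar particles, were at -0.34 (adjusted p = 0.000875) and -0.25 (adjusted p = 0.00330), each lower in 3 of 3 libraries. The number of lower genes on this list was 6 without WT replicate 3, 7 without UTX TCD replicate 1 and 7 without UTX TCD replicate 2. Thus *Myc* was higher and none of these targets was called higher in the same libraries, and no test linked them.

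Polyamine and nucleotide synthesis held 21 genes, of which 20 were listed and tested, 3 higher and 5 lower, or 3 and 4 with libraries scaled to the same sum, and the lower count was 3 without UTX TCD replicate 2. The median was -0.06, and -0.00 under the scaling to the same sum. *Tyms*, thymidylate synthase, had 1105, 1207 and 1074 in WT and 1903, 1801 and 2183 in UTX TCD libraries as normalized counts. The groups were clearly apart, with a difference of 0.79 on the log2 scale by limma (SE 0.09, adjusted p = 0.000159). The purine and pyrimidine enzyme genes *Pfas* and *Umps* were higher by 0.27 (adjusted p = 0.00764) and 0.22 (adjusted p = 0.0124), and the latter lost its call without WT replicate 1 or UTX TCD replicate 2 (adjusted p up to 0.0596). *Impdh1*, which encodes an enzyme of guanine nucleotide synthesis, had normalized counts of 16033, 13823 and 17280.5 in WT and 9839, 10129.6 and 9264 in UTX TCD libraries. No library of 1 group reached the other, and limma gave a difference of -0.68 on the log2 scale (SE 0.08, adjusted p = 0.000164). The nucleotide kinase gene *Nme2* and the pyrimidine enzyme gene *Dhodh* were at -0.35 (adjusted p = 0.00211) and -0.27 (adjusted p = 0.00560), each lower in 3 of 3 libraries.

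Cell growth and cycle targets held 22 genes, of which 21 were listed and tested, 8 higher and 1 lower, or 11 and 1 with libraries scaled to the same sum, and the lower count was 2 without UTX TCD replicate 3 or with a replicate block. The median was 0.11, against -0.00 over all genes, and 0.17 against 0.06 with libraries scaled to the same sum. *E2f1*, the transcription factor of S-phase entry, had normalized counts of 414, 540.0 and 512 in WT and 1341, 1566 and 1482 in UTX TCD libraries. Each UTX TCD library exceeded each WT library by a wide margin, with a difference of 1.59 on the log2 scale by limma (SE 0.12, adjusted p = 1.55e-05). The phosphatase gene *Cdc25a* and the S-phase factor gene *E2f3* were higher by 0.58 (adjusted p = 8.85e-05) and 0.62 (adjusted p = 0.000504), each in 3 of 3 libraries. *Ldha*, lactate dehydrogenase, was the 1 lower gene, at -0.31 (adjusted p = 0.00371, lower in 3 of 3 libraries).

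Genes that MYC lowers through other factors were 12, of which 11 were tested, 1 higher and 3 lower, or 3 and 3 with libraries scaled to the same sum, and the higher count was 2 without WT replicate 2. The median was -0.04, and 0.02 under the scaling to the same sum. *Cdkn1a*, the inhibitor p21 that MYC lowers through MIZ1, had normalized counts of 29.7, 45.4 and 29.7 in WT and 403, 305 and 435 in UTX TCD libraries. WT libraries were low throughout and each UTX TCD library was several times above them, with a difference of 3.42 on the log2 scale by limma (SE 0.23, adjusted p = 9.19e-06). *Ndrg1*, a differentiation-associated gene, had normalized counts of 1519.6, 1758 and 1639 in WT and 718, 713 and 796 in UTX TCD libraries. It was lower in all 3, with a difference of -1.14 on the log2 scale by limma (SE 0.09, adjusted p = 1.84e-05). *Klf2*, a factor of T cell quiescence and trafficking, and *Gadd45a*, a stress response gene, were at -0.46 (adjusted p = 0.000109) and -0.45 (adjusted p = 0.00584), each lower in 3 of 3 libraries. *Cdkn1a* and *Ndrg1* therefore moved in opposite directions within 1 list.

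The glucose-sensing targets of MLX with MLXIP or MLXIPL were 4 genes, all tested, 1 higher and 1 lower, also with libraries scaled to the same sum. *Arrdc4* had normalized counts of 2804, 4461 and 2953 in WT and 5385, 5674 and 5243 in UTX TCD libraries, and *Txnip* had 137898, 109900.0 and 130515 in WT and 103668, 100300.0 and 83499 in UTX TCD libraries. Both encode arrestin-like proteins that limit glucose uptake, and WT replicate 2, the library with the highest *Mlxip* in its group, was the highest for *Arrdc4* and the lowest for *Txnip* in WT. *Arrdc4* was higher by 0.71 (SE 0.15, adjusted p = 0.00527 from limma) and *Txnip* was at -0.40 (SE 0.10, adjusted p = 0.0127 from limma), each in 3 of 3 libraries. The *Txnip* call was lost without the trend in eBayes (adjusted p = 0.0596). The median of the list was 0.03, and 0.09 with libraries scaled to the same sum.

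**Figure D2:**
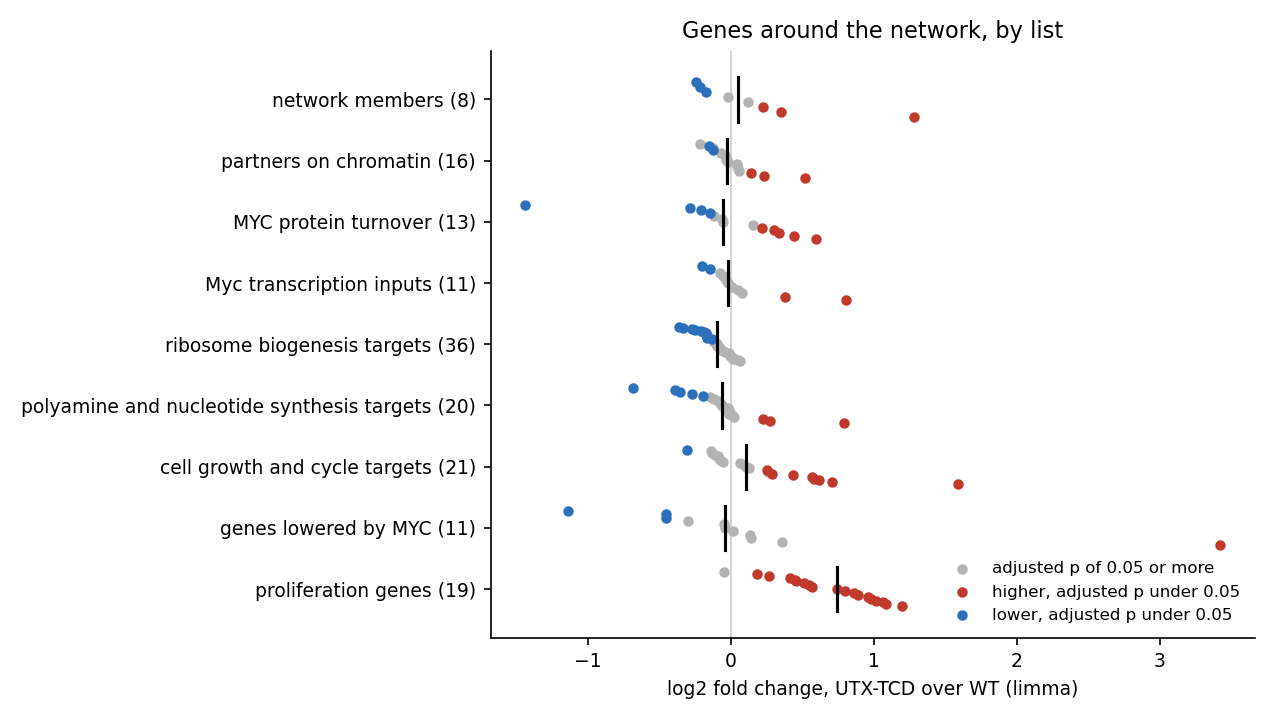
Log2 fold change (UTX TCD over WT, limma) of every tested gene in the network and in 8 lists around it, the number tested in parentheses; points are genes, red for higher and blue for lower at an adjusted p under 0.05, grey otherwise, and black bars are medians. The proliferation median of 0.74 stands apart, the ribosome biogenesis median is -0.10 (-0.04 with libraries scaled to the same sum), and the farthest points are *Cdkn1a* at 3.42 and *Usp28* at -1.44.

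The genes most like *Myc* over the 6 libraries, by Pearson correlation of log2 values among all other tested genes, were *Gsap* (r = 0.998), *Pogk* (r = 0.997) and *Nit2* (r = 0.997). This is a description over 6 libraries that share the split by genotype. *Gsap* was higher by 0.43 (adjusted p = 0.00439 from limma) and *Pogk* by 0.50 (adjusted p = 0.00299), each in 3 of 3 libraries, whereas *Nit2* was not called (0.09, adjusted p = 0.219).

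Other cells in the sort were read from marker lists by cell type. Of 6 B cell markers 4 were tested, 1 higher and 2 lower (1 and 1 with libraries scaled to the same sum), and *Ighm* was the most abundant. Their sums were 114579, 97116 and 106555 in WT and 96042, 90725 and 82223 in UTX TCD libraries, almost all of it *Ighm*, which was at -0.22 (adjusted p = 0.0402). *Cd79b* was at -1.98 (adjusted p = 1.47e-05) and *Ms4a1* was higher by 1.72 (adjusted p = 0.0367), both in 3 of 3 libraries, while the defining marker *Pax5* (0 to 11.1) was near 0. Of 10 myeloid and dendritic markers 6 were tested, 1 higher (*H2-Ab1*, 1.17, adjusted p = 0.0351) and 1 lower (*Csf1r*, -1.85, adjusted p = 0.00496), or 2 and 1 with libraries scaled to the same sum. They summed to 521, 568 and 404 in WT and 598, 590.2 and 908 in UTX TCD libraries, *Cd74* being the most abundant. *Csf1r* passed the filter on low counts only through WT libraries (19.1 to 27.7), the group where it is high. It had 4.50 to 8.11 in UTX TCD libraries, so nothing is read from its call or fold. UTX TCD replicate 3 had the highest *Cd74* (629.5) and *Ms4a1* (73.0) of the 6. Other markers went the other way there, since *Ighm* (81282), *Cd79b* (470) and the B cell sum were the lowest of the 6. *H2-Ab1* (39.1) was the lowest of its group. It was also the library with the highest *Myc* and *Mxd3* and the lowest *Mxd1*, *Mxd4*, *Mxi1* and *Mlx*. The part of B cells or myeloid cells in those values was not tested. The *Myc* and *Mxd3* calls held without UTX TCD replicate 3 (log2 fold changes of 0.30 and 1.19). Without it *Mxi1* also kept its call (adjusted p = 0.0409 from limma), *Mxd1* (0.104) and *Mlx* (0.0878) lost theirs, and *Mxd4*, without a call, turned to 0.12. The calls of *Ms4a1* and *Ighm* held only without WT replicate 2 or UTX TCD replicate 1 (adjusted p up to 0.119 and 0.146 otherwise), and that of *H2-Ab1* was lost without WT replicate 3, UTX TCD replicate 1 or UTX TCD replicate 2 (up to 0.107).

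Of 6 NK and innate-like markers 5 were listed and 3 tested, 1 higher (*Klre1*, 2.15, adjusted p = 0.00104 from limma) and 1 lower (*Trdc*, -0.17, adjusted p = 0.0451), or 1 and 0 by limma with libraries scaled to the same sum. *Trdc* was the most abundant and made up nearly all of the sums of 64902, 57725 and 60028 in WT and 57539, 53046 and 52046 in UTX TCD libraries. The other listed markers were low, *Klre1* at 9.15 to 74.5, *Klrb1c* at 5.61 to 55.3 and *Zbtb16* at 4.95 to 10.9, and *Ncr1* was at 0 in 4 of 6 libraries. Which cells the *Trdc* reads came from was not tested. Of 4 CD4 T cell markers all were tested, 0 were higher by limma (0 also at an unadjusted p under 0.05, by edgeR and by DESeq2) and 2 lower, *Zbtb7b* at -1.85 (adjusted p = 0.00950) and *Cd4* at -0.74 (adjusted p = 0.0384), or 1 lower with libraries scaled to the same sum. They summed to 518, 413 and 490.4 in WT and 391, 382 and 369 in UTX TCD libraries, with *Foxp3* the most abundant. Of 7 red cell and stromal markers 4 were tested and 1 was higher under both scalings, *Pecam1* (0.22, adjusted p = 0.0114 from limma), the most abundant. The sums were 32024, 29804 and 32209.9 in WT and 37907, 38059 and 34071 in UTX TCD libraries, nearly all of them *Pecam1*. The collagen genes *Col1a1* (254 to 475) and *Col3a1* (132 to 402) had no call, and the untested *Pdpn* had 0 to 6.75. Which cells the *Pecam1* reads came from was not tested. *Hba-a1*, a red cell gene without a call, was highest in UTX TCD replicate 3 (130, against 20.8 to 61.4 in the other libraries). The untested *Hbb-bs* was also highest there (16.2). Of 7 pancreas markers 1 was tested and lower under both scalings, *Cela1* (-1.73, adjusted p = 0.00683), with sums of 7.37 to 30.5 and *Ins2* at 0 in all libraries. *Cela1* passed the filter on low counts only through WT libraries (19.7 to 24.8), the group where it is high. It had 4.50 to 8.81 in UTX TCD libraries, so nothing is read from its call or fold. The calls of *Trdc* held only without WT replicate 2 or UTX TCD replicate 1 (adjusted p up to 0.173 otherwise), that of *Cd4* only without UTX TCD replicate 2 (up to 0.101), and that of *Pecam1* was lost without UTX TCD replicate 2 (0.0517).

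For chromatin, the ATAC-seq table lists 23932 peaks with the authors' mean log2 concentration of each genotype, a pooled value of 3 libraries without an error, so differences of peaks are described without a test. The 2 means of a listed peak differed by at least 0.18 in every case, so peaks with like means are not among them and a listed peak is by construction one with a difference. Of all listed peaks, 68.8% had the higher mean in UTX TCD cells, with a median difference of 0.49, whereas of the 22 peaks named for network members 10 were higher and 12 lower, with a median of -0.40. That split rests on peaks far from the genes, since 9 were higher and 6 lower within 50 kb of a start, and the 6 lower ones beyond it are all of *Max*. Peaks were given to the gene of the nearest start site by the authors. Such a peak named 6 of the 8 tested members, against 47.6% of all genes tested, and 8 of all 10 members. *Myc* and *Mlx* were named by no peak of the table used here.

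Both untested paralogs had peaks near their starts. *Mycn* had a promoter peak at chr12:12942350-12942750, 714 bases before the start, with an authors' mean of 9.52 in WT and 9.76 in UTX TCD cells. Its other peak, in exon 3 of 3 at chr12:12937092-12937492, had authors' means of 9.43 and 9.79. *Mycl* had a promoter peak at chr4:122995334-122995734, 397 bases before the start, with authors' means of 10.07 and 10.33, and an intergenic peak at chr4:122983485-122983885, with 9.39 and 9.02. All 4 lay above the medians over all listed peaks, 7.69 in WT and 7.92 in UTX TCD cells, while the transcripts had at most 8 reads. These 2 promoter peaks were the only member peaks within 1 kb of a start, and both had the higher mean in UTX TCD cells.

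*Max* had the most peaks, 8, all intergenic, 2 higher and 6 lower. The nearest, chr12:76932652-76933052, lay 29396 bases downstream of the start with authors' means of 9.59 in WT and 9.93 in UTX TCD cells. The next highest in concentration, chr12:77039604-77040004, lay 77556 bases upstream of the start with authors' means of 9.21 and 9.87. Beyond it the direction turned: the 6 farther peaks, between 77052759 and 77095626, were all lower, by differences of -0.42 to -1.48. They open a longer stretch, since of the 17 listed peaks in the 275 kb between *Max* and *Fut8*, 16 were lower. *Fut8* (chr12:77237430-77475998), the core fucosyltransferase gene at the far end, had normalized counts of 6008, 5960.2 and 6383 in WT and 4107, 4215 and 4443 in UTX TCD libraries. It was lower in each UTX TCD library, with a difference of -0.52 on the log2 scale by limma (SE 0.05, adjusted p = 8.04e-05), whereas *Max* at the near end was higher.

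The antagonists had peaks of both directions. *Mxd1* had a peak in intron 3 of 5, chr6:86659916-86660316, with authors' means of 6.12 in WT and 5.12 in UTX TCD cells, and its transcript was also lower. *Mxd3* had an intergenic peak at chr13:55339295-55339695, 9764 bases before the start, with authors' means of 6.43 and 7.14, and its transcript was also higher. *Mxi1* had 3 peaks, of which chr19:53299778-53300178 before the gene had authors' means of 7.23 and 6.60. The other two lay inside *Mxi1*, in intron 2 of 5 at chr19:53340414-53340814 (5.25 and 6.31) and in intron 3 of 5 at chr19:53356066-53356466 (8.72 and 9.62), and were higher although the transcript was lower. The 3 peaks named for *Mxd4* all lay in the neighbouring gene *Zfyve28* and were all lower. Their authors' means were 9.75 and 9.11 at chr5:34195189-34195589, 6.16 and 4.81 at chr5:34230597-34230997, and 7.22 and 5.60 at chr5:34232869-34233269. The 2 peaks named for *Mnt* lay in intron 6 of 9 of the neighbour *Mettl16* and were higher, with authors' means of 5.95 and 6.66 at chr11:74800830-74801230 and 5.76 and 6.81 at chr11:74801905-74802305.

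The glucose-sensing partners of MLX differed from each other. All 7 peaks of *Mlxip* were lower, by differences of -0.42 to -1.13, although its transcript was called higher. The nearest to its start, chr5:123388451-123388851, had authors' means of 8.44 in WT and 7.43 in UTX TCD cells, and the highest in concentration, chr5:123377514-123377914, had 8.68 and 8.16. A peak in intron 1 of 16, chr5:123436752-123437152, had authors' means of 8.52 and 8.10. All 4 peaks of *Mlxipl* were higher, by 0.84 to 1.68. The largest difference was at its promoter, chr5:135106630-135107030, 61 bases before a start, with authors' means of 7.24 in WT and 8.92 in UTX TCD cells, while its transcript had at most 14 reads in any library.

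Although no listed peak was named for *Myc*, 26 lay within 1 Mb of it. Of these, 15 were higher and 11 lower, where 68.8% of all listed peaks were higher. Before *Myc*, 8 of 11 were lower, the nearest being chr15:61677617-61678017, 307 kb away, with authors' means of 6.86 in WT and 5.29 in UTX TCD cells. After *Myc*, 12 of 15 were higher, and the 3 lower ones were the nearest to *Myc*, inside *Pvt1*. The first of these, in intron 1 of 6 at chr15:62065585-62065985, lay 75.2 kb from *Myc* with authors' means of 6.38 and 5.74. *Pvt1* held 6 of the peaks, 3 lower and then 3 higher by position, and among the latter chr15:62169633-62170033 was the most accessible of the 26, with authors' means of 11.71 and 12.05. The largest difference was at chr15:62390285-62390685, beyond *Pvt1*, where the authors' means were 4.57 and 6.79.

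**Figure D3:**
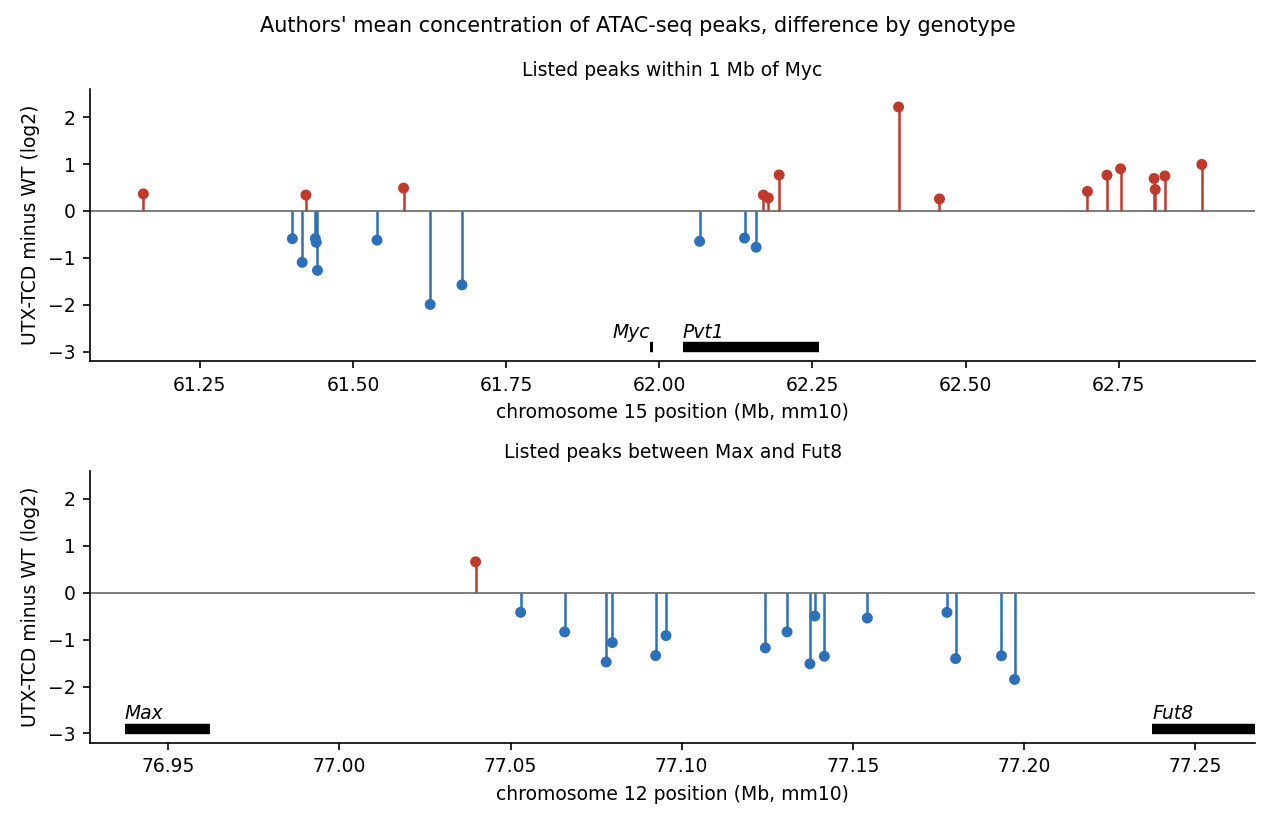
Difference of the authors' mean log2 concentration (UTX TCD minus WT) of each listed ATAC-seq peak against position on chromosome 15 within 1 Mb of *Myc* (top) and on chromosome 12 between *Max* and *Fut8* (bottom); stems are peaks, red for higher and blue for lower in UTX TCD cells, and black bars are genes. Of the peaks before *Myc* 8 of 11 are lower and of those after it 12 of 15 are higher (68.8% of all listed peaks are higher), and between *Max* and *Fut8* 16 of 17 are lower.

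*Usp28*, the turnover gene with the largest decrease, had 4 listed peaks, all lower. The peak before its start, chr9:48980389-48980789, had authors' means of 10.40 in WT and 9.94 in UTX TCD cells. The other 3 lay in intron 1 of 23, with differences of -1.43 at chr9:48991831-48992231, -2.06 at chr9:48994821-48995221 and -2.56 at chr9:48997751-48998151. Transcript and accessibility were thus both lower at this gene.

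Promoter windows of equal length around RefSeq gene starts were searched for CACGTG, the E-box that MYC–MAX and MXD–MAX dimers bind best and that reads alike on both strands. Entries were matched for 9 members (not *Myc*), and 4 of these (*Max*, *Mxd4*, *Mnt* and *Mlx*) held a match, where 8.09% of all genes with an entry and 7.15% of all promoter windows did. The looser E-box CANNTG, which includes CACGTG, matched 7 of the 9, where 75.0% of all genes with an entry and 72.3% of all promoter windows held it. In the lists, CACGTG was found for 7 of 30 ribosome biogenesis genes, 6 of 18 polyamine and nucleotide genes, 7 of 20 growth and cycle genes, 1 of 10 genes lowered by MYC, 2 of 4 MLX targets and 0 of 16 proliferation genes. The matches in the network itself are shown because they place the binding sequence of the family at the starts of its own members. The capitals mark CACGTG, and the sequences are from RefSeq on GRCm38.p6, the assembly also called mm10, 5′ to 3′ on the strand of the gene. Distances run from the first base of the motif to the start of the transcript of the entry, and for *Max*, *Mlx* and *Mnt* that start lies inside the gene span given above. The *Max* match is at chr12:76962236-76962261 (minus strand), 3 bases before that start, which the motif therefore spans, that of *Mlx* at chr11:101087240-101087265 (plus), 40 before, that of *Mnt* at chr11:74830791-74830816 (plus), 123 before, and that of *Mxd4* at chr5:34187914-34187939 (minus), 219 before.
Max: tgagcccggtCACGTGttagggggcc
Mlx: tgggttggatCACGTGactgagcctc
Mnt: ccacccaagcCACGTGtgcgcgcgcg
Mxd4: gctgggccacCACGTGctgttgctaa
Members with the match included 1 called higher (*Max*), 1 called lower (*Mlx*) and 2 without a call. In the wider network 1 of 3 genes held it, *Mlxipl*.

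Member peaks were searched for the same E-box and for ATCAAAG, a core of the sites of TCF and LEF factors, on both strands. CACGTG was in 2 of the 22 member peaks and in 8.35% of all listed peaks of the same width, and ATCAAAG in 2 of 22 and in 9.01%. The 4 matches are shown because they lie in peaks of 3 antagonists, those of *Mxd1*, *Mxd3* and *Mxi1*. Capitals mark the motif, and each is written 5′ to 3′ on the strand that carries it. The E-box of the *Mxi1* intron 2 peak is at chr19:53340590-53340615 (plus strand) and its ATCAAAG at chr19:53340702-53340728 (minus). The E-box of the *Mxd3* peak is at chr13:55339337-55339362 (plus) and the ATCAAAG of the *Mxd1* peak at chr6:86659995-86660021 (minus).
Mxi1 E-box: acacctggatCACGTGgtccagggct
Mxi1 ATCAAAG: ctgcagctttATCAAAGtttgactcac
Mxd3 E-box: gcagggtaacCACGTGatggcttcag
Mxd1 ATCAAAG: gttccacaggATCAAAGacatacataa
The *Mxi1* and *Mxd3* peaks had the higher authors' mean in UTX TCD cells and the *Mxd1* peak the lower. A match describes the letters of a window and not binding.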

How the data were processed

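RNA-seq and ATAC-seq of sorted CD8+ T_prog_ cells were used, 3 biological replicates per genotype and assay, grouped by the labels. For RNA-seq the authors used FastQC, HISAT2 2.2.1 to mm10 and featureCounts. The deposited RNA-seq signal is the read count per gene divided by 1 DESeq2 size factor per library. For ATAC-seq the authors used FastQC, cutadapt, Bowtie2, SAMtools, Picard, MACS2, DiffBind and HOMER, and the deposited peak values are the log2 mean concentration of each genotype. Gene annotation and strand setting are not given in the sources used here. The authors' own comparison columns (a log2 fold change, its error and an adjusted p per gene, and an overall concentration, a fold, a p and an FDR per peak) were not used.

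Dividing each library by its smallest value above 0 gave whole reads for 100% of the values (within 0.01). The test was limma 3.58.1 (R 4.3.3, lmFit, eBayes with trend, two-sided), applied where normalized counts averaged at least 10, on log2(normalized count + 1), with Benjamini-Hochberg adjustment over 14459 genes. On recovered reads edgeR 4.0.16 called 5865 genes and DESeq2 1.42.0 called 5958. Alternatives were other pseudocounts, filters, scalings, tests and limits, a replicate block, and each library left out. Depth was 61512402 to 193568919 reads, and levels at 3 reads cover counting error only.

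Members and lists were chosen with earlier results of these data known. Named genes were all members, *Mga*, *Mlxip*, *Mlxipl* and *Kdm6a*, up to 3 genes per direction with the smallest adjusted p in each list, the most abundant marker and markers at 0, and the 3 genes most correlated with *Myc*. Peaks named were every peak of a member, or the nearest and the 2 highest where it had over 5. *Fut8*, *Prelid1*, *Psmc3ip*, *Pcna*, *Pvt1* and *Usp28* peaks, the peaks around *Myc* and the ATCAAAG search were chosen after their values were seen.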

Additional observations from a re-analysis of the deposited data

How the results depend on the processing

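Calls across all genes (2924 higher, 2963 lower) were 1895 and 1821 at an adjusted p under 0.01, 1518 and 1020 with an absolute log2 fold change over 0.5, and 1346 and 858 with a fold over 1.5. Leaving out 1 library gave 2195 to 2897 higher and 2129 to 2905 lower. The 3 members called higher were 3 to 3 in those fits and 1 under each fold limit. The 3 called lower were 0 to 2 in those fits, 1 without the trend in eBayes, and 0 with libraries scaled to the same sum, at 0.01 and under each fold limit, by limma. The 12 lower ribosome biogenesis genes were 6 to 14 without 1 library, 4 with the same sum, 5 at 0.01 and 0 under each fold limit. The 18 higher proliferation genes were 16 to 18 and, with a fold over 1.5, 10. The log2 fold change of *Mxd4* turned to 0.043 and that of *Pcna* to 0.012 with the same sum, and *Mxd4* ranged from -0.089 to 0.12 without 1 library, 0.12 being without UTX TCD replicate 3. Where fits had fewer libraries or a higher limit, fewer calls follow from the construction, and otherwise the cause was not tested. *Kdm6a* kept its call in all 16 alternatives. Of 70 single genes, 15 lost their call without the trend (*Mxd1*, *Mlx*, *Mlxip*, *Trrap*, *Hdac2*, *Gsk3a*, *Fbxw7*, *Cnbp*, *Txnip*, *Cd3e*, *Cd44*, *Ms4a1*, *Ighm*, *H2-Ab1* and *Trdc*), 5 without a filter on low counts (*Hdac2*, *Fbxw7*, *H2-Ab1*, *Trdc* and *Cd4*) and 1 by DESeq2 (*Cd4*). Of the member peaks (10 higher, 12 lower), 2 and 0 lay within 1 kb of the start, 9 and 6 within 50 kb, and 6 and 10 had means differing by over 0.5.

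With a replicate block, 2833 genes were higher and 2869 lower, with 3 members each way, and 67 of 70 single genes kept their side of the threshold, all but *Trrap*, *Hdac2* and *Fbxw7*. Deviations of same-numbered libraries correlated at 0.31, -0.20 and 0.09 over genes, so the numbers give no evident pairing. Counts at the level of 3 reads limit *Mycn*, *Mycl* and *Mlxipl*. ATAC-seq values are the authors' pooled means, so their spread among mice is not given here. RNA levels say nothing of MYC protein.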

Other observations

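*Kdm6a* itself was named by 4 listed peaks, all in intron 2 of 28 and all with the lower authors' mean in UTX TCD cells, with differences of -0.42 to -0.82. The first, chrX:18179533-18179933, had authors' means of 7.80 in WT and 6.98 in UTX TCD cells.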
